A study of Mus musculus with 53 samples.

Results

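Glial cell line-derived neurotrophic factor (Gdnf), its relative neurturin (Nrtn), their shared signalling receptor Ret and the coreceptors Gfra1, Gfra2 and Gfra4 were followed in mouse cerebella that had lost Insm1, or Tead1 and Tead2. These 6 genes were looked up by symbol among 55573 genes in the bulk RNA tables and among 57010 genes in the single-cell matrices, and all 6 were found in both. They had been picked with their levels in these libraries already known, so every value of the 6 genes in the contrasts below is a description, and a count of calls among them supports nothing.

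The bulk libraries came from whole cerebella of single pups at P2, the second postnatal day. There were 4 Insm1fl/fl controls and 4 Atoh1Cre; Insm1fl/fl mutants in one batch, and 3 Tead1fl/fl;Tead2fl/fl controls and 4 Atoh1Cre;Tead1fl/fl;Tead2fl/fl mutants in another, as the labels give it. The single-cell libraries came from 1 cerebellum each at P7, with 2 controls and 3 mutants for each of these allele pairs. The controls carry the floxed alleles without Cre. Atoh1Cre drives recombination in cells with a history of the Atoh1 gene, mainly the granule cell lineage, so other cerebellar cells keep the floxed alleles intact. In each P7 group the animal numbered 1 had all lobules and the others lacked lobules IX and X, so dissection differs within groups.

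GDNF and neurturin are secreted dimers. Each binds a GFRα protein held at the membrane by a lipid anchor, GFRα1 for GDNF and GFRα2 for neurturin, and the pair then brings together RET, a receptor tyrosine kinase. GFRα4 is the coreceptor of persephin, another ligand of the family. GDNF is best known as the signal from kidney mesenchyme that draws out the ureteric bud, as a survival factor of enteric and motor neurons, and as a product of developing skeletal muscle.

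Gdnf lies on chromosome 15 from 7810048 to 7837580 in GRCm38.p6. Both RefSeq promoter windows of Gdnf are printed because Gdnf is the gene of the set with the highest mutant to control ratio. Each runs from 250 bases before to 50 bases after an annotated start, on the plus strand, and capitals mark the E-box (CANNTG on either strand, the class of site that basic helix-loop-helix factors such as ATOH1 and MYOD recognise). The windows are chr15:7809798-7810097 and chr15:7813477-7813776.
Gdnf, first start: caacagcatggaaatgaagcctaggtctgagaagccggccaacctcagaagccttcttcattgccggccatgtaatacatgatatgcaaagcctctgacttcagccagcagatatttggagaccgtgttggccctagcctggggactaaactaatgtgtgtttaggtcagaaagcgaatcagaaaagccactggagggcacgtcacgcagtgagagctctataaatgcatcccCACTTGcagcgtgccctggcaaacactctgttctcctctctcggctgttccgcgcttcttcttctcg
Gdnf, second start: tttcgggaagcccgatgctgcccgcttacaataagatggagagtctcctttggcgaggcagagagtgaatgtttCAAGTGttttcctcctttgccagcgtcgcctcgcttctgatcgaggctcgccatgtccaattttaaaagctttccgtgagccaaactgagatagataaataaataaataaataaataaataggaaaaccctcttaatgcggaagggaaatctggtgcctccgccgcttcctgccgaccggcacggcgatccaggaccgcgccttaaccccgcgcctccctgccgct
Each window holds 1 E-box, at base 234 of the first and base 75 of the second, counted from 1 at the 5′ end. An E-box stood in 72.3% of all 32851 RefSeq windows of this length. The core of the TEAD motif, GGAATG on either strand, was in neither Gdnf window, and it stood in 14.7% of all windows. Among the other genes, the Gfra1 window held 1 such core and the Nrtn window and both Gfra4 windows held 0. A match is a run of letters and no measured site, and none of these windows was tested for binding here. The set of RefSeq windows used here held none for Ret and Gfra2, so these genes were not read.

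The other genes lie on chromosome 17 from 56751323 to 56757548 (Nrtn), chromosome 6 from 118151748 to 118197744 (Ret), chromosome 19 from 58235581 to 58455946 (Gfra1), chromosome 14 from 70890107 to 70979840 (Gfra2) and chromosome 2 from 131039632 to 131043088 (Gfra4).

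Before the contrasts, 1 library stood apart. In the P2 library labelled Tead1/2 mutant 4, Gdnf, Ret, Tead2 and the summed muscle markers all lay at or near the control level. Tead2 stood at 25.9 CPM (counts of a gene among 1000000 counts) there, against 22.3 to 25.7 CPM in the controls and 17.4 to 19.5 CPM in the other 3 Tead1/2 mutants. By sex-linked Xist RNA this library was read as female and the other 3 Tead1/2 mutants as male. Tead1/2 controls 1 and 3 were read as male and control 2 as female. All Insm1 controls were read as female, as were Insm1 mutants 1 and 2, and mutants 3 and 4 as male. Insm1 itself was lower in Insm1 mutants at P2, by edgeR's quasi-likelihood test (log2 change -1.91, SE 0.30, adjusted p = 0.0194). At P7, summed over all cells, Insm1 went from 57.3 to 9.29 CPM in the Insm1 line. In the Tead1/2 line Tead2 went from 31.0 to 8.02 CPM, while Tead1 was higher in the mutants (631 to 1204 CPM). Gene-level counts do not read the deleted part alone, so the Tead1 and Tead2 totals are a weak check of the Tead1/2 labels. Results from that contrast are given with and without the library.

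At P2, Gdnf was low in all controls and higher in every Insm1 mutant. The 4 Insm1 controls held 0.193, 0.590, 0.301 and 0.300 CPM of Gdnf and the 4 mutants 1.78, 1.46, 1.299 and 1.40 CPM. The groups did not overlap, and the mutant mean was 4.29 times the control mean (0.346 to 1.48 CPM). The estimate rests on 8 to 22 Gdnf counts in a control library and 39 to 73 in a mutant. The fitted log2 change was 2.10 (SE 0.30). In this contrast 0.48% of the 19582 genes tested were called higher at an adjusted p under 0.05 by edgeR, and of the 6 genes Gdnf alone was called. Groups that did not overlap, with the mutants above, were found for 3.08% of genes.

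In the Tead1/2 lines at P2, Gdnf held 0.273, 0.546 and 0.604 CPM in the controls. The first 3 mutants held 1.93, 1.96 and 2.22 CPM, and the library labelled Tead1/2 mutant 4 held 0.351 CPM, within the control range. The mean was 3.40 times that of the controls with all 4 mutants. The fitted log2 change was 1.82 (SE 0.52) with that library and 2.12 (SE 0.26) without it. With all libraries edgeR called 0 of 20247 genes (0%), although 4052 had an unadjusted p under 0.05 and DESeq2 called 1005 of 17124 (5.87%), Gdnf among them. Without that library edgeR called 3.19% of 20234 genes, and Gdnf and Ret were the 2 of the 6 genes called. The difference between the deletions in the log2 change of Gdnf was -0.29 (Tead1/2 minus Insm1, SE 0.66, adjusted p = 0.968 by edgeR), an estimate too wide to rank them.

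Skeletal muscle markers moved with Gdnf in the same libraries. The summed level of 18 markers was 37.8 to 64.2 CPM in Insm1 controls and 195 to 310 CPM in Insm1 mutants. It was 38.7 to 42.6 CPM in Tead1/2 controls, 201 to 264 CPM in the first 3 Tead1/2 mutants and 36.4 CPM in the library labelled Tead1/2 mutant 4. Of the 18, 17 passed the filter on low counts in each contrast. By edgeR 15 of these were called higher in Insm1 mutants, where 0.48% of all genes were. With all libraries no gene at all was called in the Tead1/2 contrast (0%), these 17 included. Without the library labelled Tead1/2 mutant 4, 15 of the 17 were called higher, where 3.19% of all genes were called in either direction. Their part in the Gdnf values was not tested.

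Ret, the signalling subunit, was slightly lower in mutants at P2. Insm1 controls held 14.8, 14.4, 12.9 and 17.8 CPM of Ret, and Insm1 mutants 11.1, 12.1, 12.2 and 12.8 CPM, with no overlap and a gap narrower than the spread among the controls. Groups that did not overlap, with the mutants below, were found for 3.16% of genes, and edgeR called 0.209% lower, Ret not among them. Tead1/2 controls held 14.0, 13.2 and 11.7 CPM, the first 3 mutants 8.71, 8.01 and 8.51 CPM, and the library labelled Tead1/2 mutant 4 held 12.8 CPM. The log2 changes were -0.31 (SE 0.10) and -0.46 (SE 0.15), the latter -0.63 (SE 0.091) without that library. In bulk tissue, fewer Ret-bearing cells and less Ret RNA per cell cannot be told apart. Markers of some cell types moved with Ret. In Insm1 controls and mutants, 8 granule progenitor markers summed to 1174 to 1243 and 965 to 1046 CPM, and 8 endothelial markers to 179 to 198 and 129 to 173 CPM. In the Tead1/2 line the progenitor markers summed to 1033 to 1187 CPM in controls and 1199, 1133 and 1284 in the first 3 mutants. The endothelial markers there overlapped, at 165 to 169 CPM in controls and 146, 173 and 165 in these mutants. In the Tead1/2 line, 6 markers of glutamatergic nuclear neurons summed to 109 to 136 CPM in controls, 98.0, 104 and 93.1 in the first 3 mutants and 119 in the library labelled Tead1/2 mutant 4. In the Insm1 line the same 6 were higher in mutants (106 to 109 against 92.4 to 103 CPM). Their part in the Ret values was not tested.

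The coreceptors and Nrtn overlapped between controls and mutants at P2 in both lines. Gfra1 ranged from 10.1 to 13.4 CPM over the 15 libraries, Gfra2 from 9.04 to 16.2 CPM, Gfra4 from 10.8 to 14.1 CPM and Nrtn from 0.190 to 0.760 CPM. None of the 4 was called in either line, with or without the library labelled Tead1/2 mutant 4. The fitted changes of the coreceptors lay between -0.18 (Gfra1, Tead1/2 lines) and 0.066 (Gfra4, Tead1/2 lines) on the log2 scale, while Nrtn had 0.65 and 0.31 with wide errors at its low counts.

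**Figure D1:**
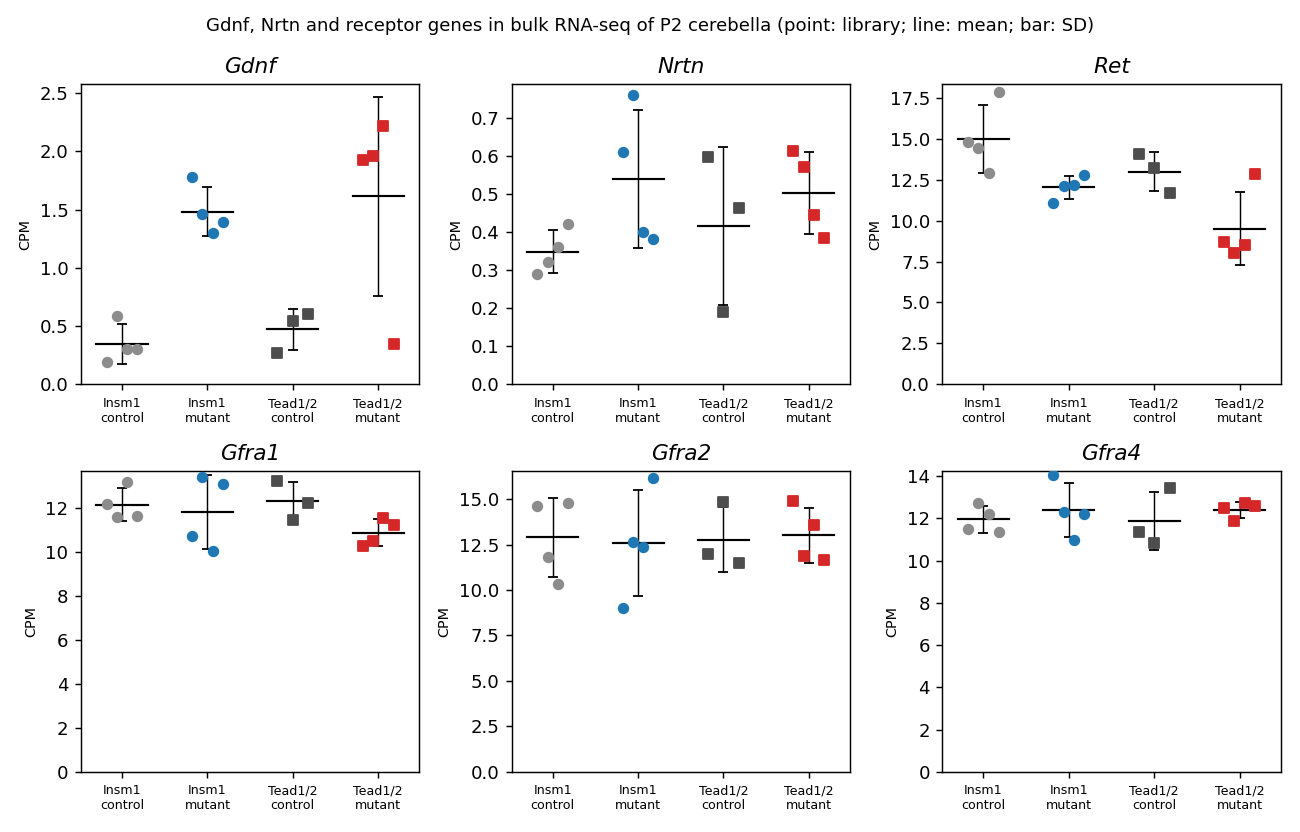
CPM (TMM-scaled) of the 6 genes in each P2 bulk library, 1 point per library, grouped by genotype. Gdnf lay between 1.299 and 1.78 CPM in the Insm1 mutants, above all their controls, while 1 Tead1/2 mutant library lay at the control level at 0.351 CPM.

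At P7 the ratio for Gdnf was far larger. Summed over all cells of a library, the Insm1 controls held 0.132 and 0.157 CPM of Gdnf (counted in UMIs, each of which marks 1 captured RNA molecule, so the scale differs from that of the P2 libraries) and the mutants 11.8, 17.9 and 16. The Tead1/2 controls held 0.161 and 0.144 and the mutants 30.1, 34.8 and 25.1. In molecules, the controls gave 52 and 36 Gdnf UMIs in all, and the mutants 5575 and 13908. The mutant means were 106 and 197 times the control means, ratios whose size rests on those few control molecules. The log2 changes were 6.71 (SE 0.27) and 7.60 (SE 0.28). The 18 muscle markers summed to 80.2 to 97.6 CPM in Insm1 controls and 6254 to 7344 in their mutants, and to 69.6 to 79.1 and 13991 to 22521 in the Tead1/2 line. Their part in the Gdnf of these sums was not tested.

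Ret was lower in mutants of both lines at P7, and so were markers of granule neurons, granule progenitors and glutamatergic nuclear neurons in the same sums. The Insm1 controls held 4.10 and 3.34 CPM of Ret and the mutants 2.26, 1.39 and 1.70. The Tead1/2 controls held 13.3 and 16.6 and the mutants 7.68, 6.08 and 7.40. The groups did not overlap in either line, with log2 changes of -1.06 (SE 0.19) and -1.08 (SE 0.18). The controls of both lines also stood apart from each other at P7 (means of 3.72 and 14.9 CPM) and not at P2 (15 and 13.0 CPM). That gap was not tested. The summed level of 9 granule neuron markers was 2926 to 3615 CPM in Insm1 controls and 1799 to 2319 in their mutants, and 3041 to 3695 in Tead1/2 controls and 1228 to 1354 in their mutants. That of 8 granule progenitor markers was 2313 to 2330 and 1322 to 1450 in the Insm1 line and 2541 to 2560 and 1029 to 1231 in the Tead1/2 line. That of 6 glutamatergic nuclear neuron markers was 97.2 to 129 and 32.0 to 57.7, and 115 to 122 and 23.3 to 41.8. Among the P7 cell clusters described below, none was named for that cell type. Slc17a6 of that list was a top gene of unnamed cluster 6, whose markers were nearest to granule neurons. Skeletal muscle-like cells, also described below, gave 21.7% (Insm1) and 36.3% (Tead1/2) of all UMIs in mutants, and 7 barcodes in Insm1 controls. The part of these cells and of the markers in the Ret values at P7 was not tested.

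Gfra2 was higher in mutants. The Insm1 controls held 39.8 and 28 CPM and the mutants 50.8, 56.6 and 60.3, and the Tead1/2 controls 39.3 and 40.3 and the mutants 60.2, 58.3 and 48.4. The log2 changes were 0.72 (SE 0.14) and 0.48 (SE 0.14). Markers of other cells moved in the same sums. The summed level of 9 mural markers was 49.2 to 78.8 CPM in Insm1 controls and 107 to 134 in their mutants, and 44.2 to 73.6 and 162 to 187 in the Tead1/2 line. That of 8 microglia markers was 99.2 to 121 and 191 to 245 in the Insm1 line and overlapped in the Tead1/2 line (231 to 429 and 346 to 498). Their part in the Gfra2 values was not tested.

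Gfra1 moved little. The Insm1 controls held 44.5 and 44.7 CPM and the mutants 52.2, 57.5 and 54.2, a log2 change of 0.29 (SE 0.089), while the Tead1/2 groups overlapped (58.4 and 61.9 against 68.8, 55.6 and 67.7). GABAergic interneuron markers summed to 393 to 414 and 451 to 486 CPM in the Insm1 line, and 435 to 438 and 309 to 406 in the Tead1/2 line, controls first. Oligodendrocyte lineage markers summed to 425 to 592 and 602 to 641, and 653 to 820 and 916 to 1179. Their part in the Gfra1 values was not tested. Gfra4 gave 35 to 133 UMIs in a library and Nrtn 7 to 32, and neither was called. Of the 6 genes, edgeR called 3 higher and 1 lower in the Insm1 line and 2 higher and 1 lower in the Tead1/2 line. Among all 24602 genes tested, 18.6% were called higher and 15.4% lower in the Insm1 line, and 25.9% and 22.7% in the Tead1/2 line. Groups that did not overlap were found for 31% of genes with the Insm1 mutants above and 27.9% with them below, and for 35.3% and 30.8% in the Tead1/2 line.

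The Gfra1 call in the Insm1 line was lost when either control was left out (adjusted p = 0.135 without control 1 and 0.115 without control 2) or mutant 2 or 3 was (0.0874 and 0.0608). In the Tead1/2 line Gfra1 was not called, except without mutant 2 (log2 change 0.18, adjusted p = 0.0410). The Gfra2 call in the Tead1/2 line was lost without either control (0.0871 and 0.0701), and both calls in the Insm1 line were lost with barcodes marked by Scrublet removed (0.0504 for Gfra1 and 0.0544 for Gfra2), by edgeR.

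**Figure D2:**
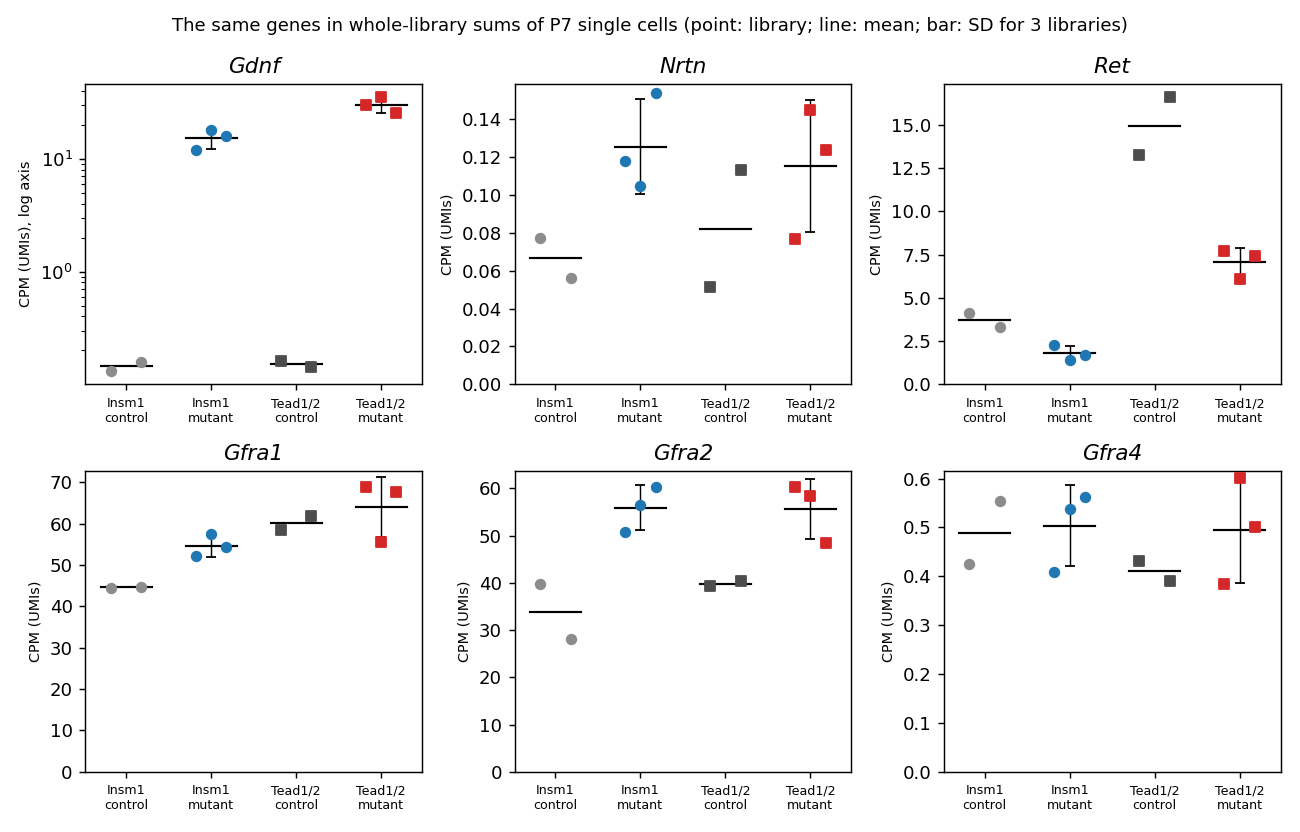
CPM of UMIs (TMM-scaled, log axis for Gdnf) of the 6 genes summed over all cells of each P7 library, 1 point per library, with a line for the mean and a bar for the SD of 3 libraries. Gdnf lay at or below 0.161 in the 4 controls and between 11.8 and 34.8 in the 6 mutants, and Ret was lower in mutants of both lines.

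Which cells carried the ligand was read from cell classes. Clusters were called by the markers they held, such as granule progenitor-like for Atoh1, Gli1 and Mki67. The skeletal muscle-like markers held myogenic factors such as Myog as well as sarcomere genes such as Neb. The 6 genes were kept out of the genes used for clustering. Levels depended on the depth of a barcode. In mutant microglia-like barcodes Gdnf went 0, 0.416, 5.11, 16.3 and 27.7 CPM over 5 bins of rising depth. Neurod1, a granule neuron factor, went there from 11.5 to 190 and Ttn, the giant sarcomere scaffold, from 247 to 9663. In granule progenitor-like barcodes Gdnf stayed between 26.5 and 35.9 over the same bins. What part depth plays in the class levels was not tested. Class levels are given for barcodes under 6000 UMIs, a limit set after these values were seen, and the level over all barcodes follows for the classes named. The limit also changes which clusters a class holds, most of all for muscle-like cells.

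**Figure D3:**
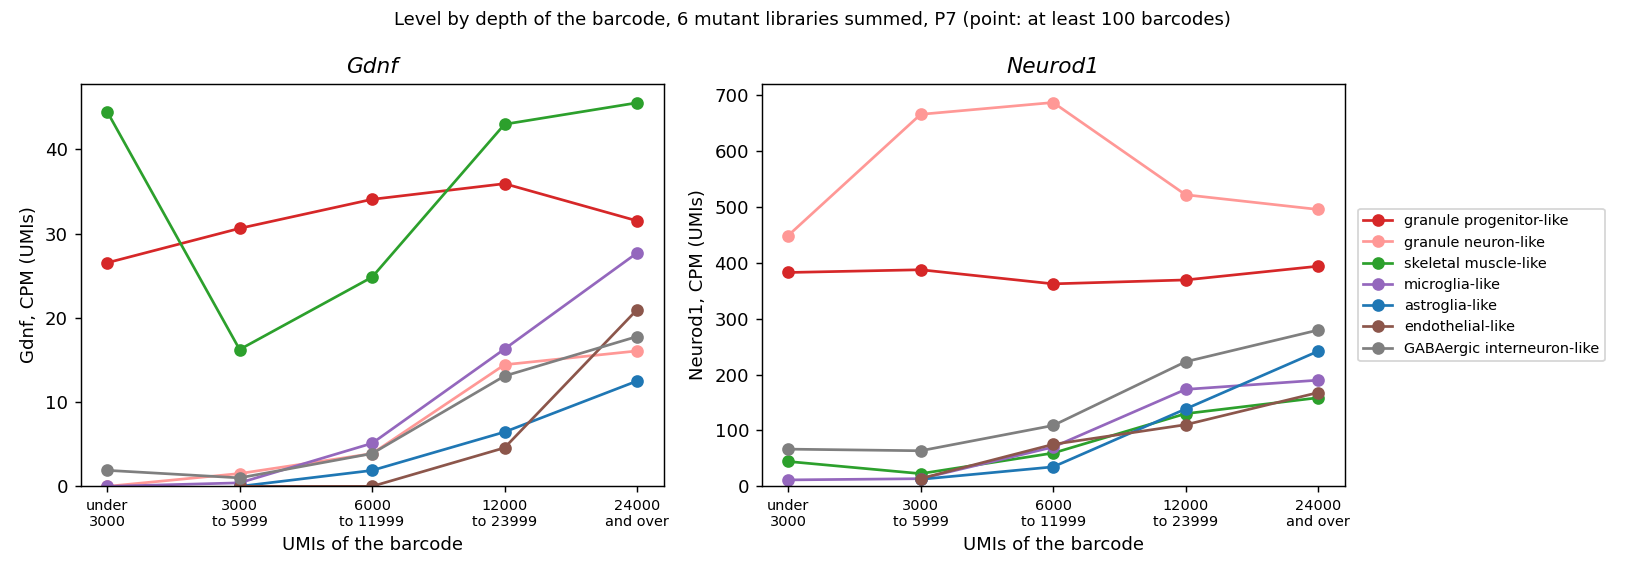
Gdnf (left) and the granule neuron gene Neurod1 (right) in CPM against the depth of the barcode, 1 line per cell class, all 6 mutant P7 libraries summed. Gdnf rose with depth from 0 to 27.7 in microglia-like barcodes and stayed between 26.5 and 35.9 in granule progenitor-like barcodes.

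The Gdnf of mutants was highest in granule progenitor-like and skeletal muscle-like cells among the classes with many barcodes, and which of the 2 held more depends on the barcodes used. In progenitor-like cells the 3 Insm1 mutants had 9.9, 27.3 and 29.2 CPM of Gdnf under 6000 UMIs (22.2 ± 10.6, SD, n = 3; 21.1 over all barcodes). The 3 Tead1/2 mutants had 33.6, 55.9 and 32.5 (40.7 ± 13.2, SD, n = 3; 42.3 over all barcodes). The controls had 0.17 and 0.43 on average. All 6 mutants lay above all 4 controls. Groups that did not overlap, with the mutants above, were found in this class for 18.9% (Insm1) and 20% (Tead1/2) of 17150 genes.

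In skeletal muscle-like cells Gdnf under 6000 UMIs was 6.9, 26.8 and 8.2 CPM in Insm1 mutants (14.0 ± 11.1, SD, n = 3) and 19.9, 16.3 and 32.3 in Tead1/2 mutants (22.8 ± 8.42, SD, n = 3). Over all barcodes the means were 29.4 and 48.9. The mix of clusters differed between these values. The limit kept 1416 of 3394 mutant barcodes of muscle-like cluster 11, but 196 of 3329 of cluster 31 and 6 of 1121 of cluster 5. Cluster 11 had Esr1, Alk and Myog among its top genes, and clusters 31 and 5 had Myh8, Neb and Acta1. Cluster 31 held 99.0 CPM of Gdnf under the limit (59 UMIs) and 60.6 over all barcodes, while cluster 11 held 14.8 and 18.2 and cluster 32 held 8.30 and 10.5. The progenitor-like clusters of mutants reached 55.5 under the limit (cluster 22). The order of muscle-like and progenitor-like cells is not resolved.

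Of all Gdnf UMIs in mutant barcodes under 6000 UMIs, 75.1% (Insm1) and 76.3% (Tead1/2) lay in granule progenitor-like cells and 17.9% and 20.8% in muscle-like cells. Over all barcodes the order was reversed, at 13.0% and 15.1% for progenitor-like against 41.7% and 54.8% for muscle-like cells. All other classes together held 7.02% and 2.85% under the limit (20 and 16 UMIs) and 45.3% and 30.1% over all barcodes. Clusters 5 and 31, of which the limit leaves few barcodes, held 2485 and 6666 Gdnf UMIs over all barcodes. Progenitor-like cluster 22 gave 471 of the mutant Gdnf UMIs under the limit, and its top genes included Chst9, Runx1t1 and Slc35f1. With barcodes marked by Scrublet removed, a cluster of 2946 cells with these top genes was named granule neuron-like. Another of 1237 cells, with Gdnf among its top genes, was named progenitor-like. The split of Gdnf between the 2 granule classes thus depends on the clustering.

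In the other classes Gdnf rested on few molecules under 6000 UMIs. Granule neuron-like cells of the Insm1 and Tead1/2 mutants had 1.52 and 1.26 CPM under the limit and 7.16 and 7.45 over all barcodes. GABAergic interneuron-like cells had 1.42 and 0.46 under it and 8.83 and 14.2 over all barcodes. Astroglia-like cells gave 0 Gdnf UMIs in 344 and 154 barcodes under the limit, which allows up to 2.04 and 4.50 CPM, and had 8.17 and 10.8 CPM over all barcodes. Microglia-like cells held 0 and 0.38 CPM under the limit and 12.8 and 25.95 over all barcodes, and fibroblast-like cells 0 and 2.10, and 13.5 and 23.2. Over all barcodes the ependymal-like and endothelial-like cells of Tead1/2 mutants had 20.6 and 19.2. None of these class means reached the progenitor-like mean of the same line over all barcodes (21.1 and 42.3). Some small sets stood high under the limit. The unnamed clusters of Insm1 mutants pooled to 14.4 CPM from 4 UMIs, the ependymal-like cells of Tead1/2 mutants to 35.7 from 2 UMIs, and GABAergic interneuron-like cluster 23 to 33.5 from 7 UMIs in 47 mutant barcodes. Counts this small do not rank these cells.

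Few cells showed a Gdnf molecule. After every barcode under 6000 UMIs was thinned to 2000 UMIs, 3.69% of progenitor-like cells in Insm1 mutants and 6.30% in Tead1/2 mutants held a Gdnf UMI (6.58% and 11.2% before thinning). The controls held 0.069% and 0.123%. Shallower progenitor-like barcodes were left out, 161 (control) and 68 (mutant) for Insm1, then 97 (control) and 94 (mutant) for Tead1/2. In microglia-like cells of mutants the thinned shares were 0% and 0.155%. The median depth under 6000 UMIs was 4420 and 4627 in mutant progenitor-like cells and 3445 and 3888.5 in mutant microglia-like cells.

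**Figure D4:**
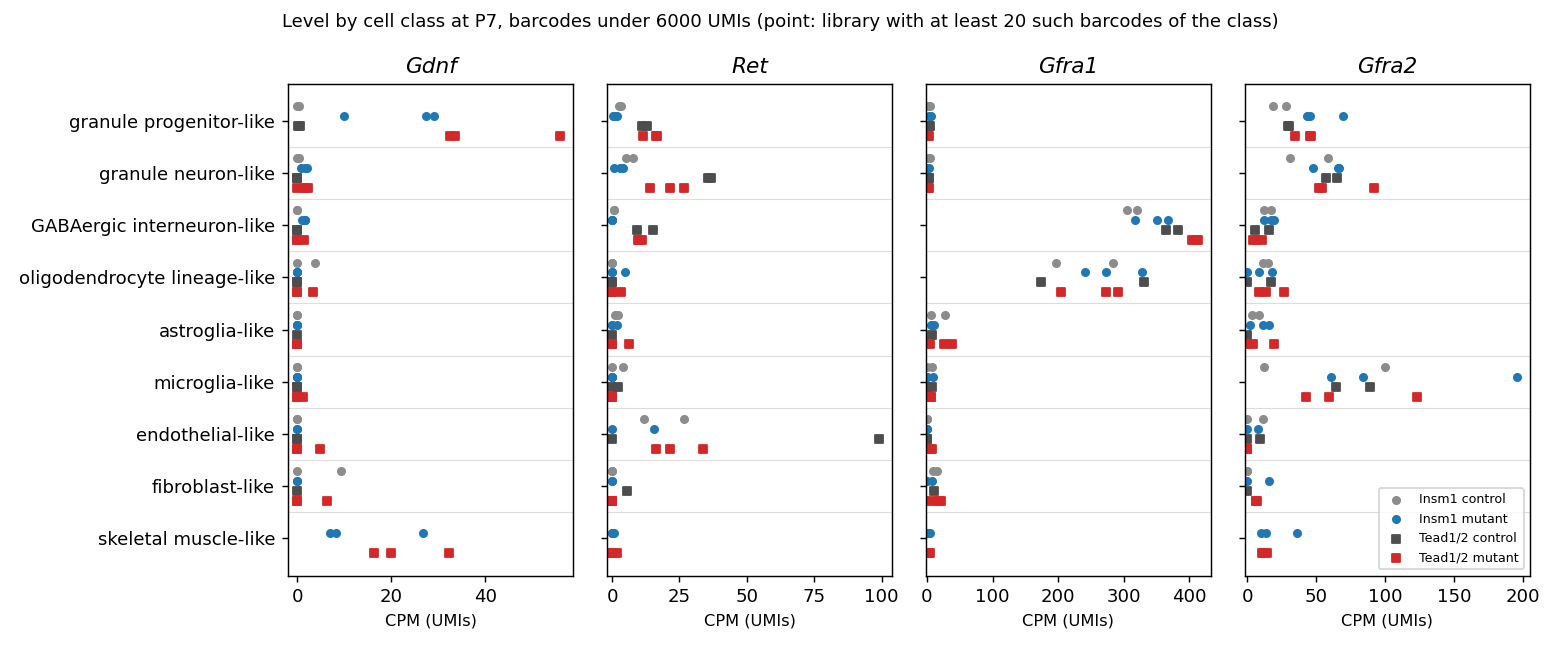
CPM of Gdnf, Ret, Gfra1 and Gfra2 by cell class at P7, barcodes under 6000 UMIs, 1 point per library, coloured by group. Among the classes shown, Gdnf stood highest in granule progenitor-like and muscle-like cells of mutants and Gfra1 in GABAergic interneuron-like and oligodendrocyte lineage-like cells.

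The receptors were spread over several classes. Gfra1, the GDNF coreceptor, was highest in GABAergic interneuron-like cells, with 312 ± 10.9 CPM in the 2 Insm1 controls and 373 ± 12.4 in the 2 Tead1/2 controls (SD, n = 2). The mutants had 345 ± 25.2 and 409 ± 4.61 (SD, n = 3). Oligodendrocyte lineage-like cells followed with means of 240 to 280 in the 4 groups, and granule classes had means of 1.48 to 4.51. Muscle-like cells of Insm1 and Tead1/2 mutants had 1.53 and 3.33, from 6 and 17 UMIs. Over all barcodes Gfra1 in the interneuron-like class was 100 and 138 in controls and 162 and 233 in mutants, and in the oligodendrocyte lineage-like class 82.6 and 126 in controls and 114 and 153 in mutants. Interneuron-like cells of controls and mutants lay partly in different clusters, since cluster 14 held 3316 control and 338 mutant barcodes and cluster 23 held 44 and 2172.

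Of the granule classes, neuron-like cells had the higher level of Ret, the kinase, and that level was lower in mutants. Under 6000 UMIs the Insm1 controls held 7.7 and 5.1 CPM and the mutants 4.1, 0.8 and 3.1. The Tead1/2 controls held 35.5 and 36.6 and the mutants 26.5, 14.2 and 21.5. The groups did not overlap in either line, as was so with mutants below for 29.3% (Insm1) and 20.7% (Tead1/2) of the 17150 genes in this class, so the separation does not set Ret apart. Over all barcodes the means were 6.67 and 2.04 in the Insm1 line and 33.0 and 17.7 in the Tead1/2 line, controls first. Progenitor-like cells had a lower mean Ret level than neuron-like cells under the limit, with means of 2.93 and 1.06 in the Insm1 line and 12.2 and 14.9 in the Tead1/2 line, controls first (3.17 and 1.75, and 12.7 and 13.1, over all barcodes). They still held more Ret molecules in all over all barcodes. In the Insm1 line this was 161 against 150 UMIs in controls and 65 against 53 in mutants, and in the Tead1/2 line 809 against 599 and 641 against 288. Endothelial-like cells gave means of 19.1 and 7.77 (Insm1) and 49.5 and 23.8 (Tead1/2), but from 4, 2, 10 and 11 Ret UMIs in all, so their rank beside the neuron-like cells is not resolved. Over all barcodes their control means were 5.998 (Insm1) and 20.6 (Tead1/2), and the mutant means were 4.22 and 12.499.

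Gfra2, the neurturin coreceptor, was found in many classes. Microglia-like cells held means of 56.4 and 114 in the Insm1 line and 76.96 and 75.3 in the Tead1/2 line, controls first, with libraries from 12.4 to 196. Over all barcodes the means were 34.8 and 55.5, and 41.8 and 57.9. Neuron-like cells held 44.6 and 60.1, and 61.2 and 66.1 (46.9 and 60.1, and 63.9 and 74.9, over all barcodes). Purkinje-like and mural-like cells were too few under the limit for a mean over libraries in most groups. Over all barcodes Purkinje-like cells had 83.2 (Insm1 controls), 110 (Insm1 mutants) and 140 (Tead1/2 mutants), above the granule and microglia-like means. In mural-like cells under the limit, pooled over libraries, 17 and 27 Gfra2 UMIs gave 156 CPM in Tead1/2 controls and 197 in their mutants. In progenitor-like cells the Insm1 controls held 28.4 and 18.6 and the mutants 45.7, 43.7 and 69.8, with no overlap, as was so with mutants above for 18.9% of genes in this class. Those of the Tead1/2 line had means of 29.8 and 42.2. Over all barcodes the progenitor-like means were 28.5 and 60.8, and 40.8 and 55.1. Nrtn and Gfra4 gave too few UMIs to place them in a class.

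Mutant granule cells fell into clusters of their own. Of the mutant progenitor-like cells, 78.1% (Insm1) and 72.0% (Tead1/2) lay in clusters made up almost wholly of mutant cells, as did 79.3% and 64.3% of the neuron-like cells. Over all barcodes Gdnf was 24.5 and 56.0 CPM in the mostly mutant progenitor-like clusters. It was 2.50 and 1.86 in mutant cells that lay in mostly control progenitor-like clusters. Ret split the other way among neuron-like cells. Mutant cells in mostly control clusters held 5.72 (Insm1) and 39.3 (Tead1/2) CPM of Ret, near the controls there at 6.85 and 34.1. Those in the mostly mutant cluster held 1.46 and 8.55. Gfra2 was 98.8 and 144 CPM in mutant neuron-like cells of mostly control clusters and 53.5 and 45.9 in those of the mostly mutant cluster. Controls in the mostly control clusters held 49.7 and 64.4 of it. These clusters were formed from the same cells, so the split is a description. The neuron-like cells of the 2 genotypes in a line lie in different clusters, and values within the class are set beside that.

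Myog, the myogenic regulator, differed between the same progenitor-like clusters, and Atoh1, the progenitor factor, differed less between them over all barcodes. Over all barcodes, Myog was 14.8 and 11.7 CPM in the mostly mutant clusters of Insm1 and Tead1/2 mutants, 2.65 and 2.11 in mutant cells of mostly control clusters and 0.443 and 0.545 in control cells there. Atoh1 was 21.5 and 11.0, then 21.6 and 12.9, then 24.9 and 20.3 in the same order. Under 6000 UMIs, Myog was 14.7 and 8.32, then 3.20 and 4.88 (from 8 and 15 UMIs), then 0.490 and 0.946. Atoh1 was 19.8 and 8.32 there, then 22.4 and 14.3, then 28.7 and 21.2, so in the Tead1/2 line it was lower in the mostly mutant clusters. Whether Gdnf and Myog lay in the same cells was not tested.

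Summed over the granule lineage, Gdnf was higher in mutants of both lines by 7.71 (SE 0.62) and 7.91 (SE 0.52) on the log2 scale. The controls gave 1 and 4 (Insm1) and 6 and 5 (Tead1/2) Gdnf UMIs, and the mutants 212, 439, 253 and 570, 1065, 588. With barcodes marked by the doublet caller Scrublet removed, the changes were 6.997 and 7.71. In the Insm1 line the change was 6.63 without control 1 and 9.19 without control 2. Ret means went from 4.24 to 1.91 CPM in the Insm1 line (log2 change -1.12, SE 0.30) and from 17.3 to 14.0 in the Tead1/2 line (-0.30, SE 0.22). Unnamed cluster 6, nearest to granule neurons by its markers, held 2271 control and 47 mutant barcodes. It is left out of these sums and of the neuron-like class, and its part was not tested. The Ret call in the Insm1 line was lost by edgeR without control 1 (adjusted p = 0.102), mutant 2 (0.0601) or mutant 3 (0.0573). Gfra2 means went from 34.3 to 61.9 (0.84, SE 0.13) and from 46.0 to 59.1 (0.36, SE 0.12). Of the 6 genes 5 passed the count filter, and edgeR called 2 higher and 1 lower in the Insm1 line and 1 higher in the Tead1/2 line. In the Tead1/2 line Gfra2 was not called by edgeR, nor by DESeq2 (0.34, adjusted p = 0.0555). Leaving out 1 library gave adjusted p values of 0.0558 to 0.235 by edgeR. Gfra2 was called there by edgeR with the dissection as replicate block (0.39, adjusted p = 0.0211), with a sex term (0.47, 0.0244) and without the filter (0.33, 0.00435). With Leiden resolution 0.5, Gfra1 was called higher in both lines (0.37, 0.0450 and 0.64, 0.00154). Of 17150 genes, 13.3% were called higher and 8.47% lower in the first and 14.6% and 9.83% in the second.

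Genes that GDNF is known to switch on in kidney or neurons were then read in the same granule lineage sums. This list and the lists below were chosen with earlier results of these data known. Their counts, medians and adjusted p values are therefore descriptions. Of 16 of the GDNF-responsive genes tested, 10 rose and 1 fell in Insm1 mutants and 8 rose and 2 fell in Tead1/2 mutants by edgeR. Over all genes 13.3% were called higher and 8.47% lower in the Insm1 line, and 14.6% and 9.83% in the Tead1/2 line. The median log2 change over the list was 1.65 and 0.63, beside 0.0047 and 0.00099 over all genes. Etv5, an ETS factor induced in the ureteric bud, went from 3.91 to 50.1 CPM in the Insm1 line and from 3.52 to 18 in the Tead1/2 line (log2 changes 3.67 and 2.36, adjusted p = 1.2e-08 and 2.3e-07). Spry4, a feedback inhibitor of receptor tyrosine kinases, rose by 3.20 and 1.95 on the log2 scale (adjusted p = 3.3e-05 and 0.00118). Dusp6, a phosphatase of ERK, rose by 1.88 and 0.71 (8.8e-06 and 0.00785) and Egr1, an immediate early factor, by 1.65 and 1.77 (6.2e-05 and 2.1e-05). Sox8, a SoxE factor, rose by 4.25 and 4.08 (4.0e-06 and 3.3e-06). Met, another receptor kinase, fell by 1.86 in the Insm1 line (0.000277). Most of these genes answer other receptor kinases too, and muscle markers moved in the same sums: 14 and 17 of 17 were called higher. Whether these changes bear on Gdnf was not tested.

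Of 19 adaptor and signalling genes of RET tested in the granule lineage, edgeR called 4 higher and 2 lower in Insm1 mutants and 4 higher and 3 lower in Tead1/2 mutants, not far from the shares of all genes just given (13.3% and 8.47%, 14.6% and 9.83%). The list medians were 0.072 and 0.020. Dok5, a docking protein, went from 2.33 to 48.5 and from 2.01 to 45.7 CPM (log2 changes 4.34 and 4.53, adjusted p = 6.6e-09 and 4.7e-09). Grb10, an adaptor and imprinted growth inhibitor, went from 65.5 to 293 and from 53.3 to 320 (2.16 and 2.58, 9.7e-08 and 2.4e-08). Shc3 and Rap1gap rose as well, by 2.16 and 1.70 in the Insm1 line and 2.28 and 1.19 in the Tead1/2 line. Gab2, a docking adaptor, fell by 0.32 and 0.41 on the log2 scale (adjusted p = 0.0174 and 0.00342), and Dok6, another docking protein, fell by 0.71 in the Tead1/2 line (0.00575).

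Of 6 alternative receptors and coreceptors, edgeR called 1 higher and 1 lower in both lines, where 13.3% and 8.47%, and 14.6% and 9.83%, of all genes were. Sorl1, a sorting receptor, rose by 1.2 and 1.79 and Sdc3, a heparan sulfate proteoglycan, fell by 0.45 and 0.61 on the log2 scale. Artn, the artemin ligand, was called higher in whole-library sums of the Insm1 line (0.83, SE 0.22, adjusted p = 0.0161), and the lines were not compared for it. Of 15 kidney regulators of Gdnf tested in whole-library sums, 5 were called higher and 1 lower in the Insm1 line and 7 and 4 in the Tead1/2 line, where 18.6% and 15.4%, and 25.9% and 22.7%, of all genes were. The list medians were 0.28 and 0.60, beside 0.038 and 0.055 over all genes. Six4 rose by 2.66 and 2.74 and Wt1 by 3.41 and 3.45 on the log2 scale. Six4 is also a factor of early muscle, and all 18 muscle markers were called higher in these sums. In granule lineage sums edgeR called Robo2 (0.89), Six4 (0.73) and Sall1 (1.44) of this list in the Insm1 line, all higher. Only Sall1 (1.66) was called in the Tead1/2 line, also higher. There 13.3% (Insm1) and 14.6% (Tead1/2) of all genes were called higher.

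**Figure D5:**
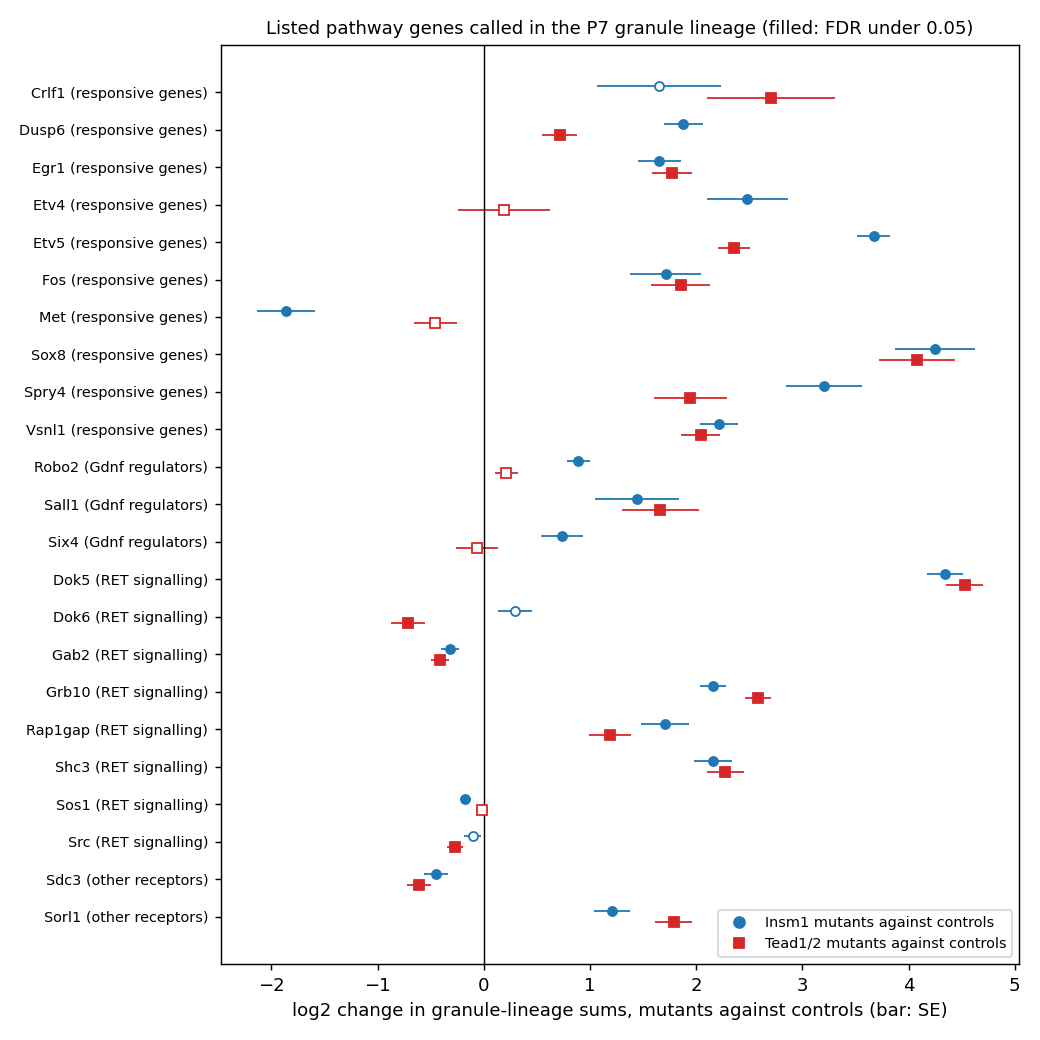
Log2 change in granule lineage sums at P7 of the listed pathway genes called in at least 1 line, 1 row per gene, circles for Insm1 and squares for Tead1/2 mutants against their controls, bars for the SE and filled symbols for an adjusted p under 0.05 by edgeR. Etv5, Sox8, Spry4 and Dok5 stood far to the right in both lines, while Met lay to the left in the Insm1 line.

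None of these lists held a called gene at P2 with all libraries, where edgeR called 0.48% of all genes higher and 0.209% lower in the Insm1 line and 0% in the Tead1/2 line. Without the library labelled Tead1/2 mutant 4, where 3.19% of all genes were called, the lists gave 1 call each among 6 alternative receptors, 20 RET signalling genes and 13 kidney regulators tested, and 0 among 17 responsive genes. Gas1 (0.54), Grb10 (0.49) and Six4 (0.61) were called higher by edgeR in the Tead1/2 line (log2 changes, adjusted p = 0.00144, 0.0196 and 0.0313).

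The genes whose pattern over the 15 P2 libraries was most like that of Gdnf were Mroh2a (Spearman correlation 0.95), Rbm24 (0.93) and Tnnt2 (0.92), the last being the cardiac and embryonic muscle troponin T. For Ret they were Crybg3 (0.95), Plcl1 (0.94) and Dcc (0.93), for Gfra1 Gm47370 and Gm44801 (0.83 each) and Adra1a (0.82), for Gfra2 Ano1 (0.83), Appl2 (0.82) and Gar1 (0.81), and for Gfra4 Oxld1 (0.86), Tsacc (0.85) and Tmem238 (0.83). Nrtn was under the minimum level. These values were the highest of 16373 genes and share the libraries' genotype and depth. Over the 12 P7 cell classes the nearest to Gdnf were Gnpat (Pearson correlation 0.97), Stc2 (0.96) and Cdh15 (0.96), the muscle cadherin. For Gfra1 they were Sox2ot (0.99), Flrt1 (0.97) and Dbx2 (0.97), for Ret 1700003F12Rik (0.92), Gm37695 (0.91) and 4933413L06Rik (0.90), and for Gfra2 Gm49289 (0.95), Gm15337 (0.87) and Gm17399 (0.85). Classes share the same 10 libraries and differ in depth.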

How the data were processed

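Whole-cerebellum RNA of 15 P2 pups and single cells of 10 P7 cerebella were measured. The bulk values are RSEM expected counts per gene as the authors deposited them, rounded here to whole numbers; the submitters' processing notes name RSEM 1.3.3, STAR 2.7.9a, Trim Galore and GRCm38.p6, with no role given, and ERCC entries were left out. The single-cell values are UMI counts per gene and barcode as deposited; their gene tables name a GRCm39 build, and the aligner is not given in the sources used here. P7 libraries were told apart by the names of their metadata within 1 record. The ATAC and CUT&RUN samples were not analysed here.

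P2 libraries held 28066643 to 64518751 counts; columns were matched to samples by their own names, which the labels give for each sample. The names of the 2 bulk tables go against this: Tead1/2 libraries sit in the one called Insm1, and Insm1 libraries in the one called TEAD. The P2 lines were assigned by the column names. In the columns read as Insm1, mean Insm1 went from 47.6 CPM in controls to 12.6 in mutants. In those read as Tead1/2 it went from 61.9 to 86.9. A P7 barcode entered if it had 1000 UMIs and 500 genes or more, with mitochondrial UMIs below 15% (4779 to 10710 a library, 0 shared between libraries); barcodes were clustered and called by markers. Counts were summed per library and tested with edgeR 4.0.16 (R 4.3.3; TMM, filterByExpr, quasi-likelihood, Benjamini-Hochberg over all genes, adjusted p under 0.05). P2 lines were fitted separately, the 10 P7 libraries in 1 fit. Replicates are single animals. Scrublet marked 0, 0 and 1 barcodes in 3 libraries and 36.4% to 55.3% in the other 7, so, against the plan, doublet calls were kept in the values reported and removed as an alternative. Alternatives were DESeq2 1.42.0, other scaling, no filter, a sex term, a replicate block and leaving out each library. The fits were tested on simulated data. The 6 genes are named whatever they did; from each pathway list, genes called in a contrast may be named, at most 8 by smallest adjusted p. The genes and lists were chosen with earlier results of these data known. Intervals and limits of a count of 0 (3 counts) cover counting error only.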

Additional observations from a re-analysis of the deposited data

Results flagged for a closer look

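In the P2 library labelled Tead1/2 mutant 4, Gdnf (0.351 CPM) and Ret (12.8 CPM) stood apart from the other 3 mutants, with a gap to the nearest of 0.845 and 0.853 of the group's range. Chance alone gives about 1 such gap in 20 groups, and 18 groups were looked at. The muscle markers and Tead2 of the same library also lay near the control level, and their part was not tested.

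Barcodes under 100 UMIs, which enter no comparison and were taken here as free RNA, carried Gdnf too. The Insm1 mutants held 8.91, 14.3 and 11.4 CPM of Gdnf there and their controls 2.01 and 1.56. The Tead1/2 mutants held 17.7, 24.1 and 19.5 and their controls 4.45 and 4.66. Every mutant lay above every control of its line. In barcodes that passed the cell filters, without TMM scaling, the Insm1 controls held less, 0.126 and 0.153 CPM, as did the Tead1/2 controls, 0.158 and 0.138. The mutants held more there, 11.8 to 17.9 in the Insm1 line and 26.8 to 36.4 in the Tead1/2 line. Whether the low barcodes hold only free RNA was not tested, nor was the part of free RNA in the Gdnf of deep barcodes.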

How the results depend on the processing

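Gdnf kept its direction in both P2 and all 4 P7 contrasts under every alternative run. Calls changed at P2: the replicate block gave 2.14 (adjusted p = 0.0812) in the Insm1 line, and in the Tead1/2 line Gdnf was called by DESeq2 (0.0159), without the filter (7.3e-05), with the replicate block (2.13, 0.0111) and without the library labelled Tead1/2 mutant 4 (0.00252). Ret in that line was called without the filter (0.00558), with the replicate block (0.0211) and without that library (0.00633). No Tead1/2 control carries number 4, so the block also takes up the library labelled Tead1/2 mutant 4. The block and the removal of that library are thus not separate settings there. With a sex term neither Gdnf (1.54, adjusted p = 0.157) nor Ret (-0.45, 0.129) was called in the Tead1/2 line by edgeR. The deviations of same-numbered animals correlated from -0.28 to 0.03 at P2, but at 0.40 for number 4 of the Insm1 line, and from -0.16 to -0.03 at P7, so the numbers were not taken to pair the animals. The cause of these changes was not tested.

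Genes called in the P2 Insm1 contrast (135) numbered 308 by DESeq2, 212 without the filter, 64 with the replicate block, 88 with a sex term and 64 to 132 with 1 library left out. In the P2 Tead1/2 contrast (0) they numbered 1005, 1287, 236 and 3, with 4 for all 15 libraries in 1 fit and 0 to 646 with 1 left out. For the difference between the deletions (0) they numbered 14 by DESeq2, 11 without the filter, 1 with the replicate block and 0 to 8 with 1 left out. At P7, 5362 genes were called with barcodes marked by Scrublet removed and 8346 with them kept, in whole-library sums of the Insm1 line. Leaving out 1 library gave 2356 to 3424 (Insm1) and 2568 to 4512 (Tead1/2) in granule lineage sums.

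Class levels in CPM moved with the barcodes used, and clustering anew also changed which clusters took a class name. With Scrublet marks removed, a cluster of 1121 cells that shared top genes Acta2, Myzap and Rgr with muscle-like cluster 32 was unnamed. Gdnf in muscle-like cells was 25.4 (Scrublet marks removed) and 14.0 (under 6000 UMIs) in Insm1 mutants, and 57.3, 50.03 (top doublet scores removed) and 22.8 in Tead1/2 mutants. Ret in neuron-like cells of controls was 6.38 and 36.1 under 6000 UMIs. Gfra1 in interneuron-like cells of controls was 295 and 219 (Scrublet), 87.4 and 113 (Leiden resolution 0.5), 106 (top scores, Insm1) and 312 and 373 (under 6000 UMIs). In oligodendrocyte lineage-like cells it was 296 and 194, 71.3 (Insm1) and 240 and 252. Gfra2 in neuron-like cells of Tead1/2 controls was 61.1 and 61.2. The limit of 6000 UMIs and the removal of top scores were chosen after seeing the data.

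Changes that switched sign were small and not called. For Gfra4 they were -0.00024 (difference between the deletions, sex term), -0.013 (P7 Insm1, dissection as replicate block) and -0.37 (Scrublet), and in granule sums -0.13 (block), -0.050 (sex term), -0.31 (resolution 0.5) and -0.053 (top scores). For Gfra1 in Tead1/2 granule sums they were -0.0073 (DESeq2), -0.013 (no filter) and -0.00069 (block). With 1 library left out, the P2 Insm1 changes ran from -0.10 to 0.033 (Gfra1), -0.18 to 0.094 (Gfra2) and -0.012 to 0.11 (Gfra4). The P2 Tead1/2 changes ran from -0.068 to 0.72 (Nrtn) and -0.056 to 0.14 (Gfra2). The differences between the deletions ran from -0.69 to 0.014 (Gdnf), -0.72 to 0.073 (Nrtn), -0.071 to 0.21 (Gfra2) and -0.053 to 0.11 (Gfra4). At P7 they ran from -0.15 to 0.23 (Gfra4, Insm1 whole), -0.30 to 0.41 (Gfra4, Insm1 granule) and -0.19 to 0.20 (Gfra1, Tead1/2 granule). The depth of 8 to 23 Gdnf counts in a P2 control and 1 to 6 UMIs in a P7 granule lineage control limits the size of its ratio.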
